A study of Mus musculus with 12 samples.

Results

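MOF, the product of Kat8, acetylates lysine 16 of histone H4 and works in either the MSL or the NSL complex. The genes described here encode MOF and its partners: Kat8 for both complexes, Msl1 and Msl2 for MSL, and Kansl1, Kansl2, Kansl3, Phf20, Phf20l1, Mcrs1 and Wdr5 for NSL. They were chosen by name as 10 of the 21938 protein-coding genes that GENCODE M21 places on the mouse autosomes, X and Y, and each was then searched for MOF ChIP-seq peaks in its gene body or within 3 kb of any of its annotated start sites.

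The data were MOF ChIP-seq peak lists from visceral white adipose tissue, the fat depot around the internal organs, of 8-week-old mice on standard diet (SD), C57BL/6 by the labels and backcrossed with C57BL/6J by the methods. Wild-type mice (Mof+/+) were compared with heterozygous mice (Mof+/-), which keep 1 intact copy of Kat8. The labels name 2 MOF, 2 H3 and 2 input libraries for each genotype, and the reporting form likewise gives 2 littermates per genotype, whereas the design text counts 2 control and 3 Mof+/- mice. The files used here hold 1 peak list for each genotype and no values by library, so no value below has a replicate error and no difference between the genotypes was tested. The segment of Kat8 removed by the Mof+/- allele is not given in the sources used here, and a list of peaks does not show the dose of the gene.

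MSL and NSL share the acetyltransferase but differ in their other subunits. MSL is best known for raising transcription of the male X chromosome in flies and for most H4 lysine 16 acetylation in mammals, and NSL for binding at the promoters of housekeeping genes, which often lie in CpG islands. Wdr5 and Mcrs1 also serve in other chromatin complexes, so a peak at their genes concerns more than MOF biology.

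In the Mof+/+ list, 9 of the 10 genes had a MOF peak by this rule, beside 44.5% of all protein-coding genes. The exception was Kansl3. In the Mof+/- list 0 of the 10 had a peak, beside 1.89% of all protein-coding genes. Cut to its 731 strongest peaks by p-value, the length of the Mof+/- list, the Mof+/+ list left 1 of the 10 genes with a peak (Kansl1), beside 3.67% of all protein-coding genes. With 731 Mof+/- peaks in all, beside 19773 Mof+/+ peaks, a peak at none of 10 genes was near what the short list gave genome-wide.

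Fold enrichment here is the fragment count at the summit of a peak over the input background, each with 1 added by the peak caller. Solving the deposited fold enrichment and p-value together returned the whole number of fragments and the background behind 19769 of the 19773 Mof+/+ peaks. The background never fell under 3.52 fragments for Mof+/+ or under 2.26 for Mof+/-, and a site at that floor needed at least 11 fragments to be listed in either genotype. Among 6 adipocyte genes used to check the tissue (Adipoq, Plin1, Lep, Cidec, Fabp4 and Lipe), 5 had a Mof+/+ peak by the same rule, beside 44.5% of all protein-coding genes, and 3 had one within 1 kb of a start site, beside 41.0%. Peaks do not measure RNA, so these counts say little about the cell types present. The tissue was used whole, so a strong signal in few cells and a weak signal in many cannot be told apart.

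Of the 10 genes, 9 had a Mof+/+ peak within 1 kb of a start site (a start-site peak), beside 41.0% of all protein-coding genes. Taking only the start of the main transcript, the one GENCODE tags as principal, 9 had a peak within 1 kb, beside 38.5% of all genes, and 8 had a peak directly over that start, beside 25.0%. Among the 12069 genes whose CpG-richest start had at least as many CpGs as that of Kat8, the lowest of the 10, the share with a start-site peak was 65.5%. The members' count of 9 in 10 is therefore read against that higher share as well as against 41.0%.

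Over the 9 genes the fold enrichment of the strongest start-site peak, chosen by p-value, ran from 3.47 to 6.19 with a median of 4.20. Over all 9003 protein-coding genes with a start-site peak the median was 3.98, with quartiles of 3.32 and 4.83. The peaks of the members had a median width of 932 bp, beside 839 bp over all such genes, and a median of 21 fragments at the summit, beside 19. The medians were close, but the members varied: 6 of the 9 widths lay outside the quartiles of all genes (512 and 1328 bp), with Msl1, Msl2, Kansl1 and Kat8 wider and Kansl2 and Phf20l1 narrower, and 3 of the 9 fold enrichments (Kansl1, Msl1 and Phf20l1) lay above the upper quartile.

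**Figure D1:**
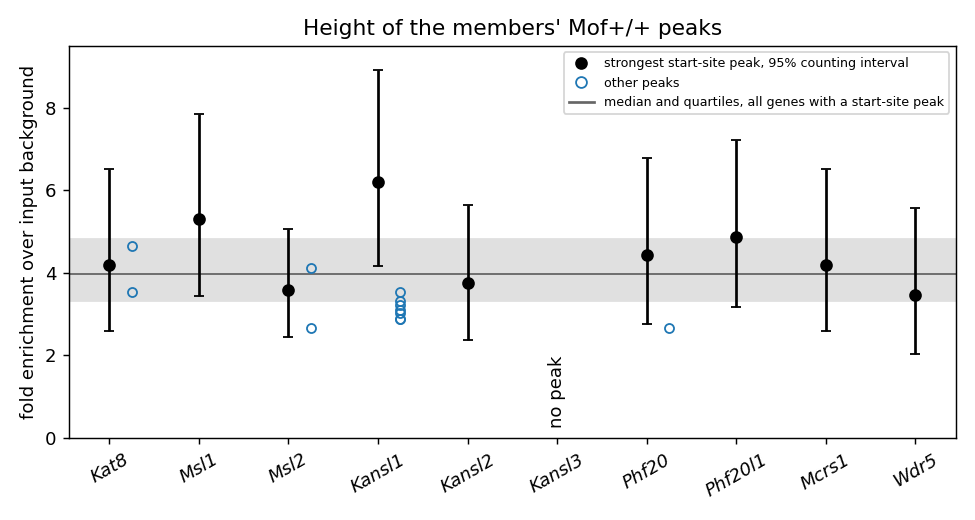
Fold enrichment over input background (vertical axis) of each member's strongest Mof+/+ start-site peak (black, with the 95% counting interval) and other peaks (open blue), beside the median (line) and quartiles (grey band) of 9003 genes. Kansl1 stood highest at 6.19 and Wdr5 lowest at 3.47, the 9 intervals overlap, and Kansl3 had no peak.

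Counting error alone was wide. An exact Poisson interval (95%) on the fragments of each summit put the fold enrichment of Kansl1 between 4.16 and 8.91 and that of Wdr5 between 2.04 and 5.58. The highest lower bound over the 9 genes was 4.16 and the lowest upper bound was 5.06, so the intervals of the highest and the lowest gene shared a range and the order of the members is a description only. These intervals cover counting error, not the spread between mice.

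The upstream sequences show how differently these promoters are built. Each line holds the 250 bases before a start site on the transcribed strand, from GRCm38, with matches on either strand to any of 7 motifs in capitals. The motifs were GGGCGG (SP), CCAAT (NFY), CCGGAAG (ETS), AAGATGG (YY1), CACGTG (E-box), GCATGCG (NRF1) and TGACGTCA (CRE). Kat8 is shown as the enzyme gene, with the fewest CpGs around its CpG-richest start, Msl1 and Kansl1 for the tallest peaks, Mcrs1 and Wdr5 for peaks whose summits lay upstream of the start, and Kansl3 as the gene without a peak. They lie at chr7:127912266-127912515 (Kat8, plus strand), chr11:98795266-98795515 (Msl1, plus), chr11:104442292-104442541 (Kansl1, minus), chr15:99251962-99252211 (Mcrs1, minus), chr2:27514907-27515156 (Wdr5, plus) and chr1:36369182-36369431 (Kansl3, minus, upstream of its outermost start).
Kat8: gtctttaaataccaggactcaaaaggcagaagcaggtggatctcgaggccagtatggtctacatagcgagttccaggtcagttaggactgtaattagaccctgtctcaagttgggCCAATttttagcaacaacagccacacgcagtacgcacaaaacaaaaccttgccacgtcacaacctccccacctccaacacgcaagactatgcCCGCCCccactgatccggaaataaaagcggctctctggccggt
Msl1: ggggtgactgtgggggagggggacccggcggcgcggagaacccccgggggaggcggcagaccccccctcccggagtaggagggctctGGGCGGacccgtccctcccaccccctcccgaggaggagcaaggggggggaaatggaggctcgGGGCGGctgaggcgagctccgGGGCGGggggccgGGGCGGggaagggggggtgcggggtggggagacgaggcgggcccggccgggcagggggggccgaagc
Kansl1: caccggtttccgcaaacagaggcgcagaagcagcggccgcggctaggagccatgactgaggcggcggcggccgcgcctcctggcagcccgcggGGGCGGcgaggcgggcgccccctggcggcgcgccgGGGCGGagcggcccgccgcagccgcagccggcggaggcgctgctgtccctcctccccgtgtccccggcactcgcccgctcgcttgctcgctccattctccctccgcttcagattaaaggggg
Mcrs1: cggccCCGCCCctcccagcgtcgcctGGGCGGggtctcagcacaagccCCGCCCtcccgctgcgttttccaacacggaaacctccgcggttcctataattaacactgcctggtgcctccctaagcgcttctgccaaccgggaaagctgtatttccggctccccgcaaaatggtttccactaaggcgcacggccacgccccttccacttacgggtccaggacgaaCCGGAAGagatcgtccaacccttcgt
Wdr5: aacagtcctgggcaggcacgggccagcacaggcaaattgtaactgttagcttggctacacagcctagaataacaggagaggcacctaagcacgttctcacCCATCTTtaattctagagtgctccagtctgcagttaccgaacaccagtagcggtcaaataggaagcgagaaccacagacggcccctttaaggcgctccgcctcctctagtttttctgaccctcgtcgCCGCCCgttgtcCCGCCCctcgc
Kansl3: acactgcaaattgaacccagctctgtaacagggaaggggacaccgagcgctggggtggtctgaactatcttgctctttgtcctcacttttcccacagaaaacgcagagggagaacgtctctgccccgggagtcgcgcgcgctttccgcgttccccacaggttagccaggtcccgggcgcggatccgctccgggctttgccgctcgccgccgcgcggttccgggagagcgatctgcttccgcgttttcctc

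All 250 bases lay under a Mof+/+ peak for Kat8, Msl1, Kansl1, Mcrs1 and Wdr5, and 0 of them did for Kansl3. The Msl1 stretch held 4 GGGCGG boxes and no other match. Kat8 held a CCAAT box and, nearer the start, a GGGCGG box on the other strand. The Kansl3 stretch held no match to any of the 7 motifs.

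Over the 10 genes, the SP box occurred upstream of the main start in 9, all but Kansl3, beside 41.6% of all protein-coding promoters and 60.3% of those with a start-site peak. CCAAT occurred in 4 (Kat8, Kansl2, Phf20 and Phf20l1), beside 35.6% of all promoters. The ETS motif occurred in 2 (Phf20l1 and Mcrs1), beside 8.60%, the YY1 core in Wdr5, beside 4.23%, and the E-box in Phf20l1, beside 6.55%. NRF1 and CRE matches occurred in 0 of the 10, beside 4.02% and 2.06%. Upstream of the outermost start instead, 3 NRF1 matches appeared at Msl2 and Kansl3 still had no SP box. A match is a string of letters, not a bound site.

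Kat8 lies on the plus strand (chromosome 7, 127912516 to 127925837) and had 3 Mof+/+ peaks. The peak at its start ran from 127911839 to 127913404 (1566 bp), with its summit 74 bp into the gene, in the coding part of exon 1. It had a fold enrichment of 4.20 from 18 fragments (95% interval 10.7 to 28.4). By p-value the peak ranked 5305 among the 19753 Mof+/+ peaks on the assembled chromosomes, tied with others such as Mcrs1 at 4970. By fold enrichment it stood at the 54.9th percentile of the strongest start-site peaks of all genes. In width it stood at the 82.0th percentile, so the start-site peak of the enzyme's own gene was near the middle in height and wider than most.

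The most enriched Kat8 peak was not at its start. It ran from 127922046 to 127923256 (1211 bp), with its summit 10305 bp downstream of the start in intron 6 of the 11-exon transcript and 3033 bp from the nearest annotated start of any gene. Its fold enrichment was 4.65 from 20 fragments (95% interval 12.2 to 30.9), which the start-site peak's interval overlaps. Of the 8729 Mof+/+ peaks with no annotated start of any gene within 1 kb, whose median fold enrichment was 3.10, 94.1% had a weaker p-value. It held 7.43 CpGs per kb, beside 34.5 per kb in the Kat8 start peak. The remaining Kat8 peak was weaker, with a fold enrichment of 3.54 from 15 fragments, and its summit lay 6070 bp from the main start in intron 3. It counted as a start-site peak only because its edge lay 946 bp from the start of the transcript Kat8-204.

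**Figure D2:**
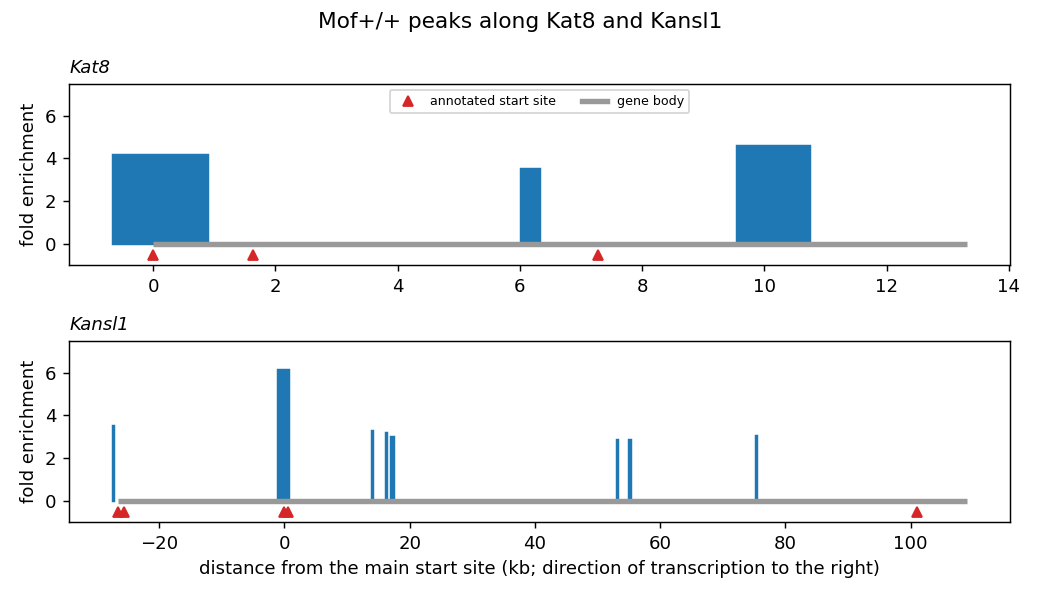
Fold enrichment (vertical axis) of the Mof+/+ peaks along Kat8 (3 peaks) and Kansl1 (8 peaks), by distance from the main start in kb, with gene bodies in grey and annotated starts as red triangles. The most enriched Kat8 peak (4.65) lies 10305 bp into the gene, whereas the Kansl1 peak at the main start (6.19) stands above the 7 others.

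Msl1, the scaffold that holds MOF and MSL3 in MSL, lies on chromosome 11 (98795516 to 98807859, plus strand) and had 1 peak. At 3468 bp, from 98793758 to 98797225, it was the widest of the members' peaks and wider than 97.3% of the strongest start-site peaks of all genes. Its fold enrichment was 5.31 from 23 fragments (95% interval 14.6 to 34.5), and its summit lay 509 bp into the gene, in the coding part of exon 1. It covered 3 of the 6 annotated starts of Msl1.

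Msl2 encodes the RING-finger ubiquitin ligase of MSL and lies on chromosome 9 (101074101 to 101104800, plus strand). It had 3 peaks, which became 1 when peaks within 1000 bp were merged. The middle one, from 101074092 to 101076046 (1955 bp), covered both annotated starts and had the most fragments of any member peak, 30 (95% interval 20.2 to 42.8). Its background of 7.65 fragments was also well above the floor of 3.52, so its fold enrichment was only 3.58. The peak before it (101073064 to 101073756) had a fold enrichment of 4.11 from 19 fragments over a background of 3.87. The third, from 101076606 to 101076945 in intron 1, had 2.67 from 14 fragments.

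Of the 2 genes for MSL subunits that NSL lacks, both had a start-site peak, and so did 6 of the 7 for NSL subunits that MSL lacks, beside the 41.0% of all protein-coding genes given above. The fold enrichments were 5.31 and 3.58 for the first set and ran from 3.47 to 6.19 with a median of 4.31 in the second. The ranges overlap, and with 2 genes in the first set no difference between the complexes was tested.

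Kansl1, the scaffold of NSL that joins MOF to WDR5, lies on the minus strand of chromosome 11 (104333229 to 104468861) and is the longest of the 10 genes at 135.6 kb. Its main start lies 26.57 kb inside the annotated gene, behind the start of the longest transcript. The peak over that main start ran from 104441496 to 104443408 (1913 bp), with 27 fragments (95% interval 17.8 to 39.3), a fold enrichment of 6.19 and its summit 264 bp upstream. It ranked 499 by p-value, the strongest peak of any member, and stood at the 94.5th percentile among the strongest start-site peaks of all genes.

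A weaker peak (104469538 to 104469858, fold enrichment 3.54 from 15 fragments) had its summit 735 bp upstream of the start of the longest transcript. The 6 other Kansl1 peaks lay over 10 kb from any start of the gene, with fold enrichments of 2.88 to 3.32. Of these, 5 had their summits in introns and 1, from 104424842 to 104425404, in the coding part of exon 2, where it overlapped the annotated gene Gm47315. Having 8 or more peaks was seen in 4.82% of the 2492 protein-coding genes of at least 100 kb. Of the 10 members, 3 (Kat8, Msl2 and Kansl1) had at least 3 peaks, beside 8.11% of all protein-coding genes.

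**Figure D3:**
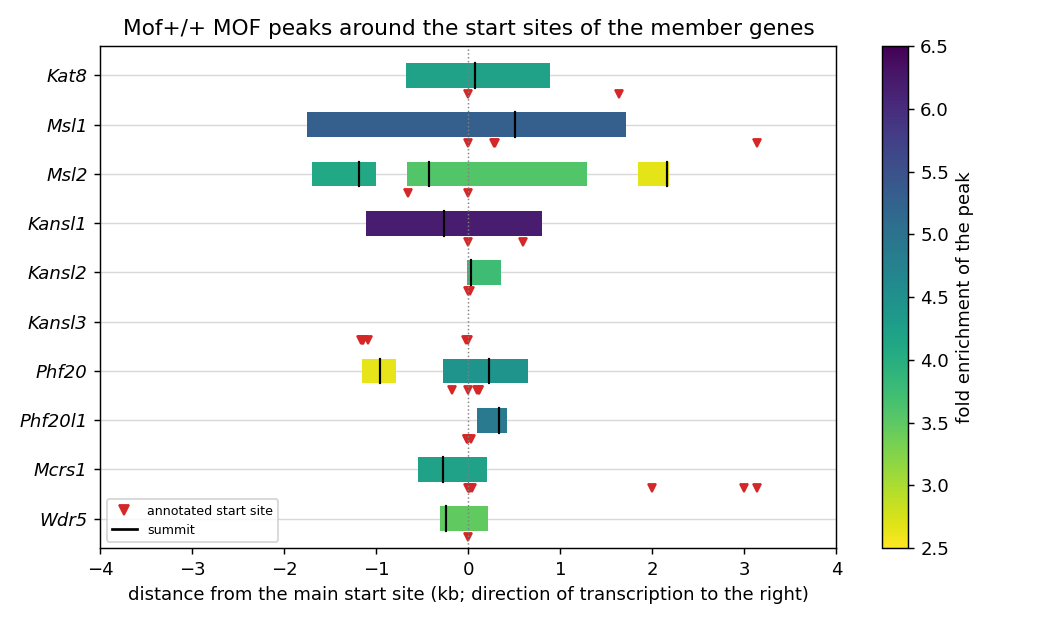
Mof+/+ peaks within 4 kb of the main start of each member, by distance in kb with transcription to the right, coloured by fold enrichment, with summits as black lines and annotated starts as red triangles. Msl1 holds the widest peak (3468 bp), Kansl2 (368 bp) and Phf20l1 (329 bp) hold narrow ones just inside the gene, and Kansl3 holds none.

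Kansl2, another NSL subunit, lies on chromosome 15 (98517658 to 98534264, minus strand). Its only peak, from 98533910 to 98534277, was 368 bp wide with its summit 30 bp into the gene, in the 5' UTR. The fold enrichment was 3.75 from 21 fragments over a background of 4.87. The peak reached only 13 of the 250 bases upstream of the start, so nearly all of it lay inside the gene.

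Kansl3 (chromosome 1, 36335730 to 36369181, minus strand) had no peak at any of its 7 annotated starts. The nearest Mof+/+ peak lay 24.956 kb from the gene. Its main start, by the GENCODE tag, had 25 CpGs within 500 bp, the fewest of the 10 genes, and 15.0 sites per kb of the RGCY sequence cut by the enzyme CviKI-1 that was used to cut the chromatin, also the fewest. Its outermost start, 1167 bp upstream and the only one in the RefSeq promoter table, had 99 CpGs and 37.0 RGCY sites per kb. By that start Kansl3 lay within the range of the members with peaks for both measures.

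Phf20, a reader of methylated lysines, lies on chromosome 2 (156196466 to 156309952, plus strand) and had 2 peaks. The one at the main start, from 156196362 to 156197293 (932 bp), had a fold enrichment of 4.42 from 19 fragments and its summit 219 bp downstream, in intron 1. The other, from 156195489 to 156195853, had its summit 962 bp upstream. With 11 fragments and a fold enrichment of 2.65 it sat at the lowest count the list allowed.

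Its paralogue Phf20l1 (chromosome 15, 66577560 to 66647976, plus strand) had 1 peak of 329 bp, from 66577673 to 66578001. Its fold enrichment was 4.87 from 23 fragments over a background of 3.92, with the summit 334 bp downstream in intron 1. This was the only one of the 9 genes whose strongest start-site peak covered no annotated start, its edge lying 68 bp past the nearest. The peak held 48.6 RGCY sites per kb, the most of any member peak. In height the paralogues could not be separated, since the interval of Phf20l1 ran from 14.6 to 34.5 fragments and that of Phf20 from 11.4 to 29.7.

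Mcrs1, a forkhead-associated domain protein, lies on chromosome 15 (99242817 to 99251961, minus strand). Its only peak, from 99251759 to 99252511 (753 bp), had its summit 279 bp upstream of the start. The fold enrichment was 4.20 from 18 fragments at the lowest background, the same whole numbers as at Kat8. The noncoding gene 1700120C14Rik starts in the other direction under this peak, so the peak cannot be assigned to either gene.

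Wdr5 encodes the WD40 protein that NSL shares with the H3K4 methyltransferases and lies on chromosome 2 (27515157 to 27536535, plus strand). Its only peak, from 27514845 to 27515375 (531 bp), had its summit 240 bp upstream of the start, inside the Wdr5 stretch printed above. It was the weakest of the 9 by p-value, with a fold enrichment of 3.47 from 15 fragments, and ranked 10284 of 19753.

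The 10 genes had 21 Mof+/+ peaks in all, of which 13 were start-site peaks, and 8 of these covered an annotated start. The 8 peaks farther than 1 kb from a start of their gene had a median fold enrichment of 3.06 and ran from 2.67 to 4.65, with the Kat8 intron 6 peak as the highest. The strongest start-site peaks had their summits a median of 228 bp from the nearest start, beside 192 bp over all genes, 6 downstream and 3 upstream of it. Of the 59 annotated starts of the 10 genes, 21 lay under a peak, beside 23.8% of the 93513 starts of all protein-coding genes.

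The lowest background differed between the lists, and library totals were not analysed here, so each member's peak was read against what the Mof+/- list reached. The weakest Mof+/- peak had a -log10 p-value of 4.72 and the weakest Mof+/+ peak one of 3.25. Of the 9 strongest start-site peaks, 9 were past 4.72, beside 87.3% of those of all 9003 genes. Multiplying fragments and background by 0.642, the ratio of the lowest Mof+/- to the lowest Mof+/+ background, left 8 of the 9 past 4.72, beside 61.3% of those of all 9003 genes. Wdr5 fell short, with 10 scaled fragments and a -log10 p-value of 4.50, and the highest was Kansl1 at 10.4 with 17.

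Of these 8 genes, 0 had a Mof+/- peak at a start site. Of all 5518 genes with any Mof+/+ start-site peak, not only the strongest, past 4.72 after scaling, 4.24% had one. Few of the genes at this height thus kept a listed peak genome-wide. Taking the lower counting bound of the fragments before scaling left only Kansl1 past 4.72. Of the 806 genes that stayed past by that bound, 13.9% had a Mof+/- start-site peak, and Kansl1 did not. The scaled counts of 10 fragments at Wdr5 and of 12 or 13 at Kat8, Kansl2, Phf20 and Mcrs1 lay nearest to the 11 that a Mof+/- site needed at the lowest background. At these genes, and at Msl1, Msl2 and Phf20l1 once counting error is allowed for, a lower MOF signal and an unchanged signal that went unlisted cannot be told apart from the lists. Nor can they be told apart at Kansl1. Its bound covers counting error of the Mof+/+ fragments only, and the scaling used the lowest backgrounds alone.

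**Figure D4:**
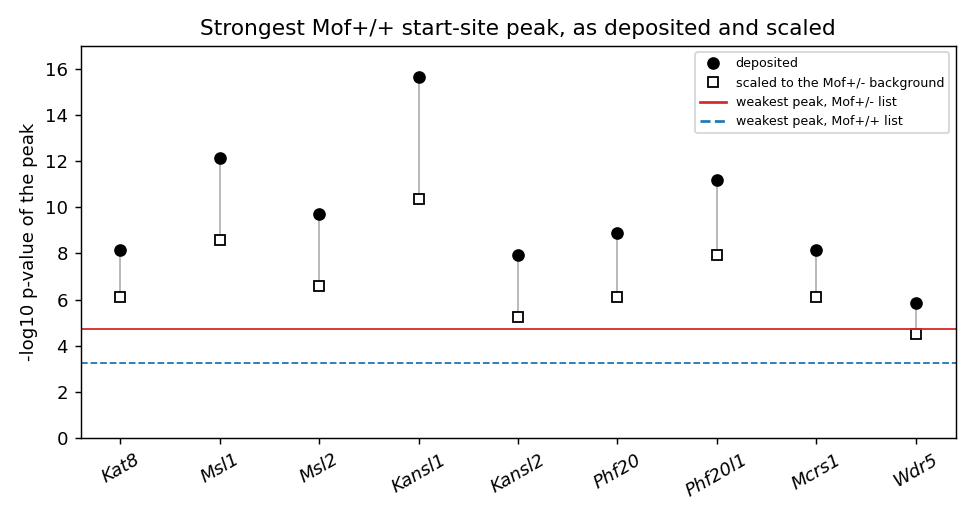
The -log10 p-value of the strongest Mof+/+ start-site peak of 9 members as deposited (filled) and after fragments and background were scaled to the Mof+/- background (open squares), with the weakest listed Mof+/- peak at 4.72 (red) and the weakest Mof+/+ peak at 3.25 (dashed blue). After scaling Wdr5 lies under the red line at 4.50 and the other 8 above it, from 5.26 at Kansl2 to 10.4 at Kansl1.

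The nearest Mof+/- peak lay 0.112 Mb from Msl1, 0.673 Mb from Kat8, 0.712 Mb from Kansl1 and over 1 Mb from each of the other 7 genes, up to 6.86 Mb for Phf20l1. Widening the window to 10 kb around the start sites gave 0 members with a Mof+/- peak as well, beside 2.38% of all protein-coding genes. The Mof+/- list therefore gave no value at any of these genes, and a ratio between the genotypes was not computed.

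CpG number tracked the listing of start-site peaks across all genes. Sorted by the number of CpGs within 500 bp of their CpG-richest start, the share of genes with a Mof+/+ start-site peak was 1.09% in the lowest of 10 groups of near equal size and 76.1% in the highest. The members' numbers ran from 44 at Kat8 and 63 at Mcrs1 to 130 at Kansl1, with a median of 96.5, beside 50 over all genes. Kansl3, with 100, and Phf20l1, with 98, were next to each other in CpG number and differed in having a peak. Kat8 had its peak with 44, in a group of genes where 40.7% had one.

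**Figure D5:**
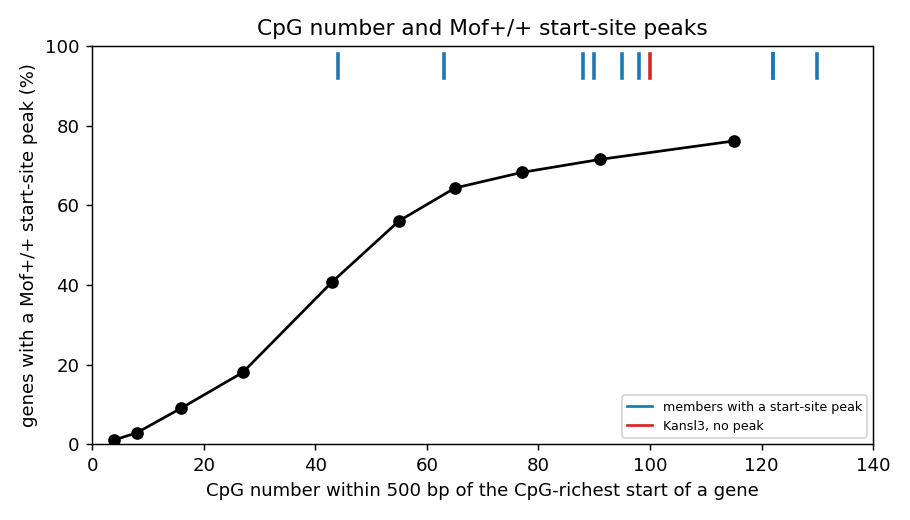
Share of protein-coding genes with a Mof+/+ start-site peak (percent) in 10 groups of genes by CpG number within 500 bp of the CpG-richest start, plotted at the median of each group, with the members' CpG numbers as marks at the top (red for Kansl3). The share rises from 1.09% to 76.1%, and Kansl3 at 100 CpGs lies among members that had a peak.

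The 3 further subunit genes examined (Msl3, Hcfc1 and Ogt) lie on the X chromosome. Ogt, the O-GlcNAc transferase of NSL, had a peak of 868 bp at its start with a fold enrichment of 4.87 from 21 fragments. Hcfc1, host cell factor, had one of 1728 bp with 3.76 from 16 fragments and its summit 1426 bp upstream. Msl3, the chromodomain subunit of MSL, had none, and the nearest Mof+/+ peak was 1305 kb away. Start-site peaks were listed at 11.3% of the 948 protein-coding genes of the X chromosome.

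The other MYST acetyltransferase genes (Kat5, Kat6a, Kat6b and Kat7) all had a start-site peak, 4 of 4, beside 41.0% of all protein-coding genes. Among genes with at least as many CpGs as Kat8 the share was 65.5%. Their median fold enrichment was 5.31 (3.80 to 6.85), and 0 had a Mof+/- peak, beside 1.89% of all protein-coding genes. The 3.80 at Kat5 came from a peak whose summit lay downstream of the gene, with a start of Rnaseh2c within 1 kb. The peak over the main Kat5 start had 3.91. The genes for partners of WDR5 in H3K4 methyltransferases were Ash2l, Rbbp5, Dpy30, Kmt2a, Kmt2b, Kmt2c, Kmt2d, Setd1a and Setd1b. Of these, 9 of 9 had a start-site peak, beside the same 41.0%, with a median fold enrichment of 4.65 (2.25 to 7.30). The 2.25 was at Dpy30, which had no peak within 1 kb of its main start. Its only peak had its summit 7074 bp away, by another annotated start. Kmt2b was the only gene of these lists with a Mof+/- peak, from 30589361 to 30589613 on chromosome 7, with a fold enrichment of 4.29 from 13 fragments. That peak lay upstream of Kmt2b and overlapped the gene Mir3569, so it cannot be assigned to either gene. The members' median of 4.20 lay below the medians of both lists, 5.31 and 4.65, and within their ranges, and no difference was tested.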

How the data were processed

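Per the study's methods, the authors mapped paired reads to GRCm38 with snakePipes and called peaks with MACS2 (version 2.1.1.20160309.3 in the submitters' processing notes) against input at a q-value limit that the weakest deposited peak, at 0.0969, respects. Each deposited list gave position, fold enrichment (a ratio over input), the p-value and q-value as −log10 values, and the summit position. Neither list names its libraries, and whether reads or peaks of the 2 MOF libraries of a genotype were joined to make it is not stated in the sources used here. The methods describe a merge of peaks up to 1000 bp apart, but 3789 Mof+/+ and 144 Mof+/- peaks lay that close to the peak before, so the deposited lists do not show that merge. H3 libraries and signal tracks were not used here.

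Genes and starts came from GENCODE M21 (GRCm38), and sequences from the RefSeq copy of that build, whose promoter table held 9 of the 10 members with the same bases. A peak was assigned by an overlap of at least 1 bp. Fragments and background were recovered from fold enrichment and p-value within a tolerance of 0.001 in −log10 p, and the script was tested on simulated data. Python 3.11.15, numpy 2.4.6, scipy 1.17.1 and pysam 0.24.0 were used. Every member was named with all of its peaks, and other genes only from fixed subunit, context and marker lists or where they overlapped a member peak. The members and lists were chosen with earlier results of these data known. Intervals are exact Poisson intervals (95%) and cover counting error only.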

Additional observations from a re-analysis of the deposited data

How the results depend on the processing

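Of 32 alternative settings over 7 results, 31 left the value within 1.5 times. Reducing the Mof+/+ list to its strongest peaks by p-value, as many as the Mof+/- list held, moved the number of members with a Mof+/+ peak from 9 to 1 (Kansl1), since the shorter list holds fewer peaks by construction. Stricter q-values (0.01 and 0.001), coding transcripts alone, summits in place of edges, and other windows gave 9 members with a Mof+/+ peak and 0 with a Mof+/- peak. For the Mof+/- count only the 10 kb window could have raised the 0. The other settings could only remove peaks or starts, so their 0 was fixed in advance, though they count among the 31. Of the settings chosen after seeing the data, merging peaks within 1000 bp (the distance in the study's methods), the weakest Mof+/- p-value and q of at most 0.01 each took the members' 21 peaks to 17. Without the 1 that the peak caller adds, the median fold enrichment was 5.11 in place of 4.20. No paired analysis was possible because 1 peak list stands for each genotype and carries no replicate numbers, and replicates could not be left out in turn for the same reason. Values between libraries, and any Mof+/- signal under 11 fragments at the lowest background, are beyond these lists.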
